A study of Mus musculus with 7 samples.

Results

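The transcripts described here come from the mitochondrial genome. They are all genes of the deposited expression table whose symbol begins with mt-, which makes 15 of the 28233 genes listed. Of these, 13 encode proteins of the respiratory chain (7 subunits of complex I, 1 of complex III, 3 of complex IV and 2 of complex V) and 2 are the ribosomal RNAs mt-Rnr1 and mt-Rnr2. The mouse annotation used for names and sequences (GENCODE M21, on assembly GRCm38) also holds 22 mitochondrial tRNA genes. None of those 22 has a row in the tables used here, so tRNAs were not analysed.

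Mitochondrial DNA is a small circular genome that is present in many copies per cell. Both of its strands are transcribed into long precursors, which are cut mainly at the tRNAs lying between the other genes. Most of the freed mRNAs are polyadenylated, and the mRNAs decay at different rates. Their products are core subunits of the respiratory chain and of ATP synthase, which are completed by many subunits made from nuclear genes.

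The RNA came from 7 tumours that B16mhgp100 cells, derived from the mouse melanoma line B16, formed under the skin of C57BL/6 mice. Over-expression of Cr1l marked 4 of them (Cr1l 1 to Cr1l 4). This is the gene of the mouse complement regulator Crry. The other 3 (Vec 5, Vec 6 and Vec 7) carried the vector. All hosts, including those of the vector tumours, received anti-PD1, an antibody that blocks an inhibitory T cell receptor, in doses of 200 µg. Dosing began at day 10 with 2 doses per week and ended after 4 doses, and the tumours were collected 1 day later, so no tumour shows the state without the antibody. Whether the cells were 1 clone or a pool, and what drove Cr1l, the sources used here do not give. Nor do the labels say that each tumour came from a separate mouse, so p-values measure the spread between these tumours. Tumours also hold host cells, and in bulk RNA fewer cells of a type and less RNA per cell cannot be told apart.

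Values are TPM, a length-scaled relative abundance that summed to between 993520 and 996031 per tumour, and the read depth behind them is unknown. As to the melanoma label, all 10 melanocyte markers were above the filter and summed to 9450.1 to 20939 TPM in Cr1l tumours and 13653 to 21259 TPM in Vec tumours. Cr1l itself averaged 6.32 in its tumours and 5.70 in vector tumours on the log2(TPM + 1) scale, and the groups did not overlap. The labels of Vec 6 and Vec 7 hold a number that is missing for Vec 5, and the sources used here do not give its meaning.

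All 15 members were well above the low-value filter (a mean of at least 1 TPM, passed by 14954 genes), and all 15 had a higher mean in Cr1l tumours. Of the 14954 genes, 8281 had a positive fold change. The size of the difference varied between genes. It was largest for 5 of the 7 complex I mRNAs (mt-Nd1, mt-Nd2, mt-Nd3, mt-Nd5 and mt-Nd6) and for both rRNAs and smallest for mt-Atp6, mt-Atp8 and mt-Co3. By limma 0 of the 15 passed an adjusted p of 0.05 (smallest 0.0702, for mt-Nd1), where 0.0134% of all genes passed, 0.0% higher and 0.0134% lower. At an unadjusted threshold of 0.05 the limma fit placed 11 of 15 members higher and 0 lower, against 9.49% and 6.07% of all genes. In the same 11 members the groups did not overlap and every Cr1l tumour was above every Vec tumour, against 9.29% of all genes (6.67% were non-overlapping and lower). For those 11 an exact permutation test with all 35 splits into 4 and 3 tumours gave 0.0286 (two-sided), its smallest possible p. That value was reached, on the higher side, by 5.55% of all genes, and its adjusted value was 0.306. The DESeq2 comparison in the authors' deposited table called 9 of the 15 higher and 0 lower, where it called 4.74% of all genes higher and 2.27% lower (7.02% in all). The median log2 fold change of the members was 1.33, beside 0.05 over all genes tested. Members share precursors and tumours and are not replicates of each other.

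**Figure D1:**
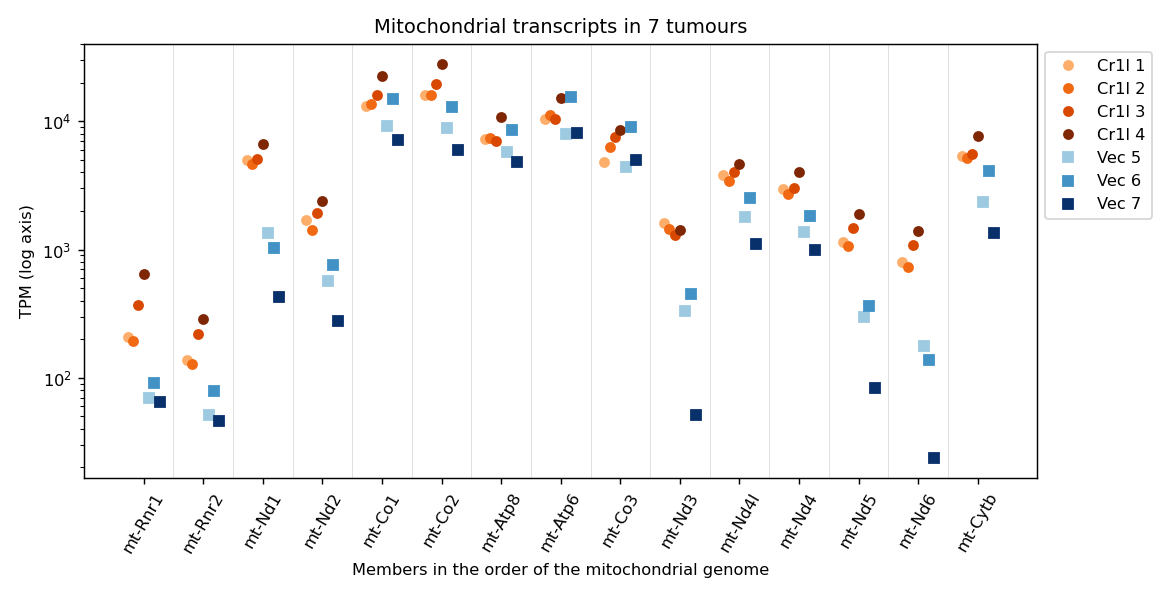
TPM of the 15 members (log axis) in each of the 7 tumours, with genes in the order of the mitochondrial genome, circles for Cr1l tumours and squares for Vec tumours. The circles sit above the squares for the rRNAs, complex I genes, mt-Co2 and mt-Cytb, and mix with them for mt-Co1, mt-Atp8, mt-Atp6 and mt-Co3, and Vec 7 has the lowest square for every complex I gene.

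Complex I takes electrons from NADH at the entry of the chain, and its mitochondrial genes encode the proton-pumping part that lies in the membrane. mt-Nd1 stood at 4973, 4629, 5092 and 6621 TPM in Cr1l 1 to Cr1l 4 and at 1342, 1026 and 425 TPM in Vec 5 to Vec 7. The Cr1l tumours lay close together, and the lowest of them was above the highest vector tumour. Mean levels were 5329 ± 884 TPM (SD, n = 4) with Cr1l and 931 ± 466 TPM (SD, n = 3) with vector, and the log2 fold change was 2.66 (SE 0.37, adjusted p = 0.0702 by limma). mt-Nd6, the 1 mRNA of the set that is read from the opposite strand of the genome, stood at 799.5, 731, 1082 and 1389 TPM against 177, 138 and 23.7 TPM. The groups were far apart, and Vec 7 lay well under Vec 5 and Vec 6. Its log2 fold change of 3.51 was the largest of the 15 members (SE 0.64, adjusted p = 0.118 by limma). The library keeps no strand, so reads of mt-Nd6 cannot be separated from those of opposite-strand RNA over the same bases, which includes any left from the precursor of mt-Nd5 and mt-Cytb.

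mt-Nd5 stood at 1143, 1071, 1465 and 1899 TPM with Cr1l and at 298, 359.9 and 83.4 TPM with vector. The order of the tumours was nearly that of mt-Nd6, its neighbour on the other strand, with Cr1l 4 highest and Vec 7 lowest. The log2 fold change of mt-Nd5 was 2.70 (SE 0.48, adjusted p = 0.112 by limma). mt-Nd2, which stands next after mt-Nd1 among the mRNAs along the genome, was at 1687, 1427, 1931 and 2385 TPM against 565, 756 and 276 TPM. Its groups did not overlap, and the log2 fold change was 1.89 (SE 0.34, adjusted p = 0.112 by limma). mt-Nd3 stood at 1626, 1447.5, 1309 and 1426 TPM against 331, 450.4 and 51.6 TPM. Its level in the Cr1l tumours varied little, by 1.24 times from lowest to highest, while the vector tumours spanned 8.73 times. The log2 fold change of mt-Nd3 was 2.86 (SE 0.66, adjusted p = 0.172 by limma).

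mt-Nd4 and mt-Nd4l are carried on 1 joint mRNA with overlapping reading frames and had like, smaller differences. mt-Nd4 stood at 2952, 2729.6, 3042 and 3999.5 TPM against 1367, 1833 and 987 TPM. mt-Nd4l stood at 3829, 3407, 4067 and 4619 TPM against 1780.4, 2512 and 1098 TPM. In neither did the groups overlap. Both had a log2 fold change of 1.22, with adjusted p of 0.119 and 0.159 by limma. The ratio of mt-Nd4 to mt-Nd4l was 0.748 to 0.866 in Cr1l tumours and 0.730 to 0.899 in Vec tumours, with overlap.

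Among the vector tumours the complex I genes did not keep 1 order. Vec 7 was lowest for all 7, Vec 6 was above Vec 5 for mt-Nd2, mt-Nd3, mt-Nd4, mt-Nd4l and mt-Nd5, and Vec 5 was above Vec 6 for mt-Nd1 and mt-Nd6. The size of the largest fold changes rested partly on Vec 7. Without it the log2 fold change was 2.62 for mt-Nd6, 2.05 for mt-Nd5, 2.17 for mt-Nd1 and 1.90 for mt-Nd3. mt-Nd3 then passed (adjusted p = 0.0498 by limma), the 1 call that any limma setting gave a member. It was also the 1 gene of all 14954 called higher in that fit (0.00669%), so this share is mt-Nd3 itself. In that fit 11 of 15 members were higher at the unadjusted threshold, against 7.43% of all genes. Without both Vec 6 and Vec 7, where Vec 5 is the 1 vector tumour and its spread is taken to be that of the Cr1l tumours, 10 of 15 members were higher at the unadjusted threshold, against 3.43% of all genes. In that comparison all 15 members of every Cr1l tumour were above Vec 5, against 20.1% of all genes, and the complex I log2 fold changes ran from 1.15 for mt-Nd4l to 2.45 for mt-Nd6. In the authors' deposited table all 7 complex I genes were called higher, from mt-Nd6 (3.10, adjusted p = 1.73e-05 by DESeq2) and mt-Nd1 (2.47, adjusted p = 1.06e-07) to mt-Nd4l (1.07, adjusted p = 0.0299).

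**Figure D2:**
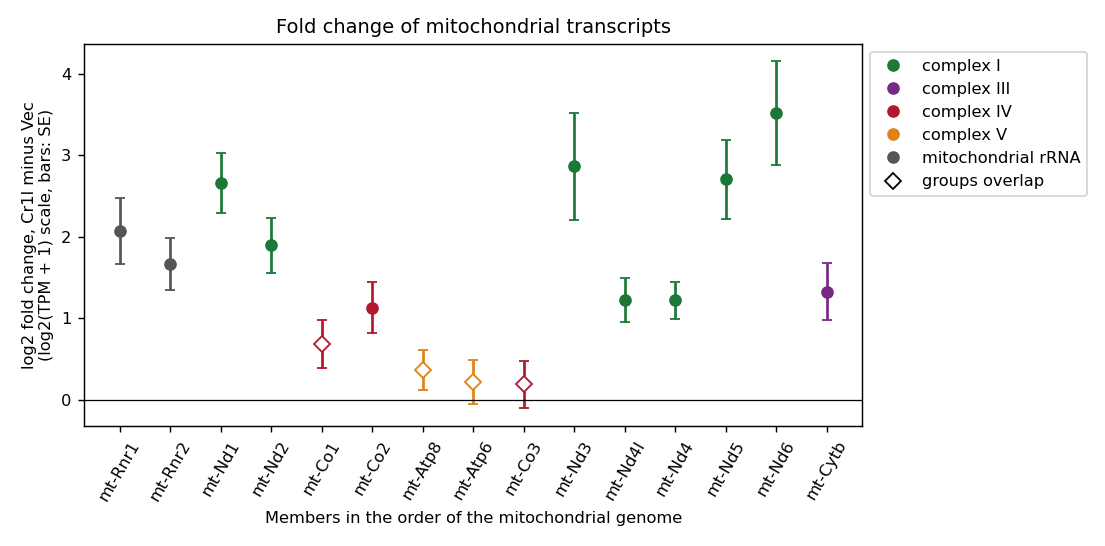
Log2 fold change of each member (Cr1l minus Vec, from log2(TPM + 1) values) with its limma standard error, coloured by respiratory complex or rRNA, with open diamonds where the 2 groups overlap. Complex I genes run from 1.22 to 3.51, while mt-Co1, mt-Atp8, mt-Atp6 and mt-Co3 lie between 0.19 and 0.68.

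mt-Cytb encodes cytochrome b, the mitochondrial subunit of complex III, which passes electrons from ubiquinol to cytochrome c. It stood at 5383, 5199, 5609 and 7753 TPM with Cr1l and at 2353, 4085 and 1356 TPM with vector. The groups did not overlap, although Vec 6 came near the lower Cr1l tumours. The log2 fold change of mt-Cytb was 1.33 (SE 0.35, adjusted p = 0.213 by limma), and it was 1.12 in the authors' deposited table (adjusted p = 0.0697 by DESeq2), past the threshold in neither. The ratio of mt-Nd5 to mt-Cytb, which the mt-Nd6 gene separates on the other strand, was 0.206 to 0.261 in Cr1l tumours and 0.0615 to 0.127 in Vec tumours, without overlap.

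Complex IV, cytochrome c oxidase, hands electrons to oxygen, and its 3 mitochondrial genes encode the catalytic core. mt-Co2 stood at 16159, 15945, 19538 and 28222 TPM against 8945, 13069 and 5985 TPM. It was the most abundant transcript of all genes in every Cr1l tumour and ranked 3, 5 and 9 in Vec 5, Vec 6 and Vec 7. The groups did not overlap, and the log2 fold change was 1.13 (SE 0.31, adjusted p = 0.221 by limma). mt-Co1 stood at 13109, 13602, 16149 and 22504 TPM against 9254, 14937.5 and 7148 TPM, and here Vec 6 lay above Cr1l 1 and Cr1l 2. Its log2 fold change was 0.68 (SE 0.30, adjusted p = 0.323 by limma). mt-Co3 stood at 4837, 6368, 7562 and 8509 TPM against 4436, 9002 and 5031 TPM, so that the highest tumour of all was Vec 6 and Cr1l 1 was under Vec 7. The log2 fold change of mt-Co3 was 0.19 (SE 0.29, adjusted p = 0.765 by limma), less than the spread between tumours. In the authors' deposited table it was 0.06 (adjusted p = 0.943 by DESeq2).

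Complex V, the ATP synthase, takes from the mitochondrial genome its proton channel subunit (mt-Atp6) and a small membrane subunit (mt-Atp8). mt-Atp6 stood at 10401, 11247, 10535 and 15141 TPM against 7927, 15638 and 8173 TPM. Vec 6 was again the highest tumour of all, where mt-Atp6 ranked 1 among all transcripts. Its log2 fold change was 0.22 (SE 0.27, adjusted p = 0.703 by limma). mt-Atp8 stood at 7325, 7403, 7038 and 10865 TPM against 5785, 8590.2 and 4819 TPM. It too overlapped between groups, and the log2 fold change was 0.37 (SE 0.24, adjusted p = 0.473 by limma). These reading frames share their junction, which is shown because both genes are carried on 1 mRNA and reads over it fit either gene. In GENCODE M21 the last bases of mt-Atp8 and the first of mt-Atp6 are as follows, 5′ to 3′, with the 43 shared bases in capitals.
mt-Atp8 end: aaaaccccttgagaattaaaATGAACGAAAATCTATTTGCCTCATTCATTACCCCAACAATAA
mt-Atp6 start: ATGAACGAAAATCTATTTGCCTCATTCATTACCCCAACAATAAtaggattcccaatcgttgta
The ratio of mt-Atp6 to mt-Atp8 was 1.39 to 1.52 in Cr1l tumours and 1.37 to 1.82 in Vec tumours, with overlap. mt-Co3 follows mt-Atp6 with no tRNA between them, and the ratio of mt-Co3 to mt-Atp6 also overlapped, at 0.465 to 0.718 against 0.560 to 0.616.

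Poly-T beads selected the RNA, so a transcript enters these libraries through its poly(A) tail, or through an internal run of A. For some members the tail also completes the stop codon, because the gene ends on its T. The last 30 bases of these 3 mRNAs in GENCODE M21 are shown, 5′ to 3′, with that T in capitals.
mt-Co3: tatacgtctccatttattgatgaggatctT
mt-Cytb: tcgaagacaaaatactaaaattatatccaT
mt-Nd4: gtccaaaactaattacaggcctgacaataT
The 3 genes had log2 fold changes of 0.19, 1.33 and 1.22, a range that takes in much of the set. Tail lengths were not measured, and their part in the differences was not tested.

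The rRNAs mt-Rnr1 (12S) and mt-Rnr2 (16S) are the RNA core of the mitochondrial ribosome and lie at the start of the heavy-strand transcript. Their tails are short, and in these poly-T selected libraries their TPM was low beside the mRNAs. mt-Rnr1 stood at 207, 194, 371 and 648 TPM against 69.6, 90.4 and 64.3 TPM. The 2 groups did not overlap, and Cr1l 3 and Cr1l 4 were well above Cr1l 1 and Cr1l 2. The log2 fold change of mt-Rnr1 was 2.07 (SE 0.41, adjusted p = 0.127 by limma). mt-Rnr2 stood at 138, 129, 220.4 and 287 TPM against 51.0, 78.55 and 46.0 TPM, with the same division among the Cr1l tumours, and its log2 fold change was 1.67 (SE 0.32, adjusted p = 0.120 by limma). Unlike for complex I, Vec 7 was close to Vec 5 in both rRNAs. The authors' deposited table called both higher, mt-Rnr1 with 2.19 (adjusted p = 3.69e-04 by DESeq2) and mt-Rnr2 with 1.66 (adjusted p = 0.00211). mt-Rnr1 over mt-Rnr2 was 1.50 to 2.26 in Cr1l tumours and 1.15 to 1.40 in Vec tumours.

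Shares within the mitochondrial mRNA also divided the groups. Complex I genes took 22.9%, 20.5%, 21.3% and 19.4% of the summed TPM of the 13 protein-coding members with Cr1l, and 13.2%, 9.77% and 8.31% with vector. Complex V took 23.9%, 24.8%, 20.8% and 22.5% against 30.8%, 33.5% and 36.6%. Both divided the groups without overlap, in opposite directions. Complex IV took 45.9% to 51.4% against 50.8% to 51.2%, with overlap, and mt-Cytb took 6.64% to 7.25% against 3.82% to 5.64%. Each of the 13 genes divided the groups by its own share. All 7 complex I genes, mt-Cytb and mt-Co2 had higher shares in Cr1l tumours, and mt-Co1, mt-Co3, mt-Atp6 and mt-Atp8 had lower ones. These shares sum to a whole and so depend on each other, and they were not tested.

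Ratios between members restate the differences given above, so they add no separate result, and they were not tested. The first ratio divides a gene with a large fold change by mt-Co3, which had the smallest. mt-Nd1 over mt-Co3 was 1.03, 0.727, 0.673 and 0.778 with Cr1l and 0.303, 0.114 and 0.0845 with vector. Vec 5 lay between Vec 6 and the Cr1l tumours. mt-Nd6 over mt-Nd5 was 0.683 to 0.738 against 0.284 to 0.593, and mt-Co1 over mt-Co2 was 0.797 to 0.853 against 1.03 to 1.19. Both ratios were narrow within the Cr1l tumours and wider among the Vec tumours. Of all TPM, complex I genes took 1.55% to 2.25% in Cr1l tumours and 0.296% to 0.712% in Vec tumours, while complex V took 1.76% to 2.61% against 1.31% to 2.44%.

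**Figure D3:**
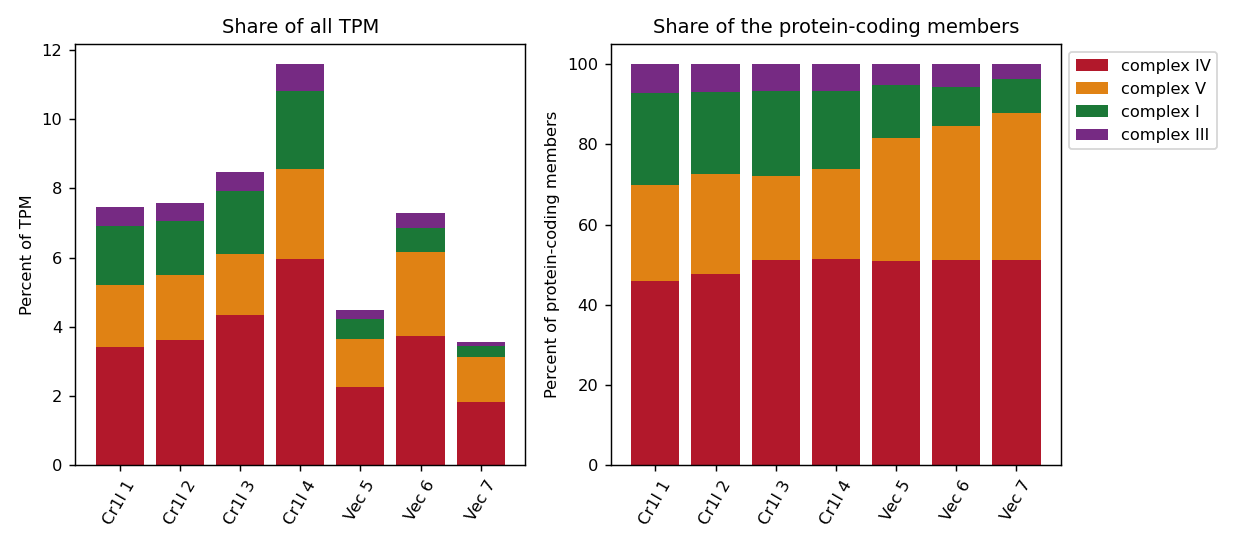
Stacked bars per tumour of the protein-coding members by complex, as percent of all TPM (left) and as percent of the 13 protein-coding members (right), without the rRNAs. On the right the complex I band takes 19.4% to 22.9% in Cr1l tumours and 8.31% to 13.2% in Vec tumours, and the complex V band 20.8% to 24.8% against 30.8% to 36.6%.

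Levels of different members are comparable only as far as TPM scales length well. Mean TPM over the authors' mean normalised count per base of the annotated gene was, relative to the median of the 13 coding members, 20.3 for mt-Atp8 (204 bases), 5.46 for mt-Nd4l (297 bases) and 3.20 for mt-Nd3 (348 bases). For the other 10 it was 0.769 to 1.43. The TPM of these 3 short genes is therefore high for the counts behind it, which weighs on their shares above. For mt-Nd3 the log2 fold change was 2.86 here and 2.30 in the authors' deposited table. Whether length was scaled alike in every tumour was not tested.

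Several members have near-identical copies in nuclear DNA, pieces of the mitochondrial genome that were once inserted there. Reads within identical stretches cannot be assigned to 1 of them by sequence alone. In GENCODE M21 transcripts, 7 members matched a predicted gene of the table at 99% identity or more over at least 90% of that gene. These 7 predicted genes stand in a row on 1 nuclear chromosome, with no other gene among the 7 they span, and, read along their strand, in the gene order of the mitochondrial genome. Gm28661, Gm10925, Gm28437, Gm10222 and Gm28439 were identical to mt-Co2, mt-Atp6, mt-Co3, mt-Nd4l and mt-Nd4 over 681, 678, 783, 294 and 876 aligned bases. Gm28438 differed from mt-Nd3 at 1 base of 345 (T3C) and Gm29216 from mt-Co1 at 1 base of 483 (A1066T), positions counted from 1 at the 5′ end of the mitochondrial transcript. The stretches around these bases are shown, 5′ to 3′ with the differing base in capitals, the sole letters that differ within the aligned bases. Bases outside the alignments, such as those before base 10 of Gm29216, are not shown.
mt-Nd3: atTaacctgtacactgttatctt
Gm28438: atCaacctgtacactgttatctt
mt-Co1: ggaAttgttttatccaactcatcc
Gm29216: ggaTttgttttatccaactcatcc

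The level of these copies beside that of their mitochondrial partners varied between pairs and tumours. Gm10925, the copy of mt-Atp6, stood at 2373, 2215, 3069 and 4056 TPM with Cr1l and at 1644, 376 and 198 TPM with vector. The groups did not overlap, unlike for mt-Atp6 itself, and the log2 fold change was 2.51 (SE 0.64, adjusted p = 0.199 by limma). It took 16.5% to 22.6% of the pair's TPM in Cr1l tumours and 17.2% in Vec 5, but 2.35% in Vec 6 and 2.37% in Vec 7. Gm28437, the copy of mt-Co3, took 13.2% to 31.2% of its pair in Cr1l tumours, 22.6% in Vec 5, 1.17% in Vec 6 and 0.804% in Vec 7. For both pairs Vec 5 was within the range of the Cr1l tumours, and Vec 6 and Vec 7 were far below it.

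Gm28438, the copy of mt-Nd3, took 40.8%, 42.7%, 56.1% and 62.9% of its pair in Cr1l tumours and 62.0%, 32.8% and 84.5% in Vec tumours. Gm29216 stood at 94.7 to 865 TPM in Cr1l tumours and at 131, 1656 and 451 TPM in Vec tumours, with its highest level in Vec 6. Gm10222, Gm28661 and Gm28439 were at 0 in at least 1 tumour and at no more than 118 TPM in any. Of the 6 copies that passed the filter, limma called 0 and placed 3 higher at the unadjusted threshold (Gm10925, Gm28437 and Gm28438). Over all genes limma called 0.0134% and placed 9.49% higher at the unadjusted threshold. The authors' deposited table called Gm10925 (1.99, adjusted p = 0.0215 by DESeq2) and Gm28438 (2.17, adjusted p = 4.05e-05) higher, where it called 4.74% of all genes higher.

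When each member was summed with its copy, the log2 fold change of mt-Atp6 went from 0.22 to 0.42 and that of mt-Co3 from 0.19 to 0.44. Both still overlapped between groups, with Vec 6 among the Cr1l tumours. For mt-Nd3 with Gm28438 the sum stood at 2746, 2524, 2984 and 3843 TPM against 870.5, 670.1 and 332 TPM. The spread among vector tumours narrowed, and the log2 fold change was 2.37 (SE 0.32, adjusted p = 0.0666 by limma). With copies summed, 0 of 15 members passed and 11 were higher at the unadjusted threshold, as without. Of all 14948 genes in that fit, 0 passed as higher and 2 as lower, and 1414 were higher at the unadjusted threshold. The 8 members that had no such copy among annotated transcripts had a median log2 fold change of 1.98 (0.37 to 3.51). The 7 that had one had 1.13 (0.19 to 2.86). Nuclear sequence outside annotated transcripts was not searched. mt-Atp8, counted among the 8, shares 43 bases with mt-Atp6 that also lie in Gm10925. How the quantification divided reads between the pairs was not tested.

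**Figure D4:**
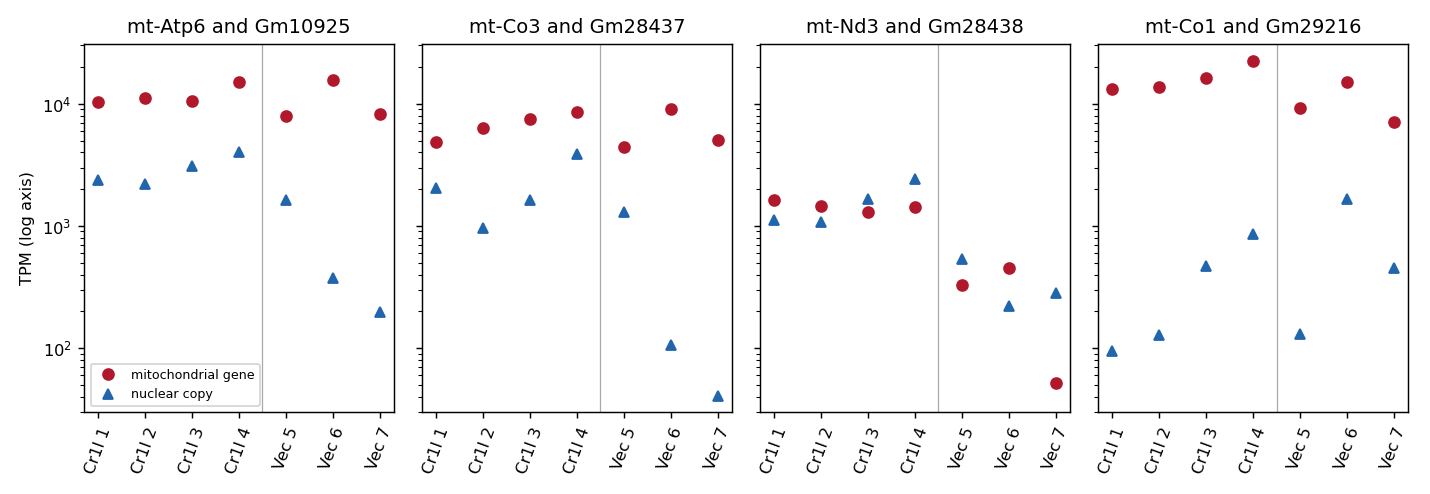
TPM (log axis) of 4 members (circles) and of their near-identical nuclear copies (triangles) in each tumour, with a line between Cr1l and Vec tumours. In Vec 6 and Vec 7 the copies of mt-Atp6 and mt-Co3 stand at 376 and 198 TPM and at 107 and 40.8 TPM, while their mitochondrial partners stand at 5031 TPM or more.

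Nuclear genes that build the same complexes had fold changes that were mostly negative and small. Their summed TPM was low in Cr1l 3 and Cr1l 4 alone. In each complex these tumours were below every Vec tumour, while Cr1l 1 and Cr1l 2 lay within the Vec range. The nuclear complex I genes summed to 11047, 10931, 8382 and 8519 TPM with Cr1l and to 9788, 10410 and 11651.5 TPM with vector. Of 84 tested nuclear genes of complexes I, III, IV and V, 16 had positive and 68 negative fold changes, with a median of -0.12. Over all genes tested, 8281 were positive and 6673 negative. The limma fit called 0 of them, and at the unadjusted threshold 0 were higher and 2 lower (Ndufb7 of complex I at -0.51 and Cox4i1 of complex IV at -0.45). The 46 nuclear complex I genes had a median of -0.12 beside 2.66 for the 7 mitochondrial ones, and the 78 mitochondrial ribosomal protein genes, partners of the rRNAs, had a median of -0.11. Nuclear genes that follow mitochondrial content were mostly lower on average, with 3 of 14 positive and a median of -0.08. These genes summed to 6329, 5981, 4191 and 4297 TPM against 5851, 4664 and 6249 TPM, again lowest in Cr1l 3 and Cr1l 4. Among them Tomm20, an import receptor of the outer membrane, stood at 62.0, 66.1, 49.0 and 40.1 TPM against 81.6, 71.9 and 94.0 TPM (log2 fold change -0.61, adjusted p = 0.247 by limma). Over all 265 tested nuclear genes of these and the following lists, 82 were positive and 183 negative, 0 were called, and 9 were higher and 11 lower at the unadjusted threshold. At that threshold 9.49% of all genes were higher and 6.07% lower.

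Genes that make, process and degrade mitochondrial RNA showed small differences. The transcription list (11 genes) had a median of 0.22 with 8 positive, and Polrmt, the mitochondrial RNA polymerase, stood at 27.9, 27.8, 24.0 and 38.65 TPM against 21.9, 17.8 and 29.6 TPM (0.35, adjusted p = 0.450 by limma). The list of DNA replication had a median of 0.16 with 8 of 11 positive, that of RNA processing and modification 0.01 with 10 of 20, and that of mRNA stability and polyadenylation -0.11 with 6 of 16. In the last, Fastkd5, needed for mRNA ends that have no tRNA beside them, stood at 8.63, 8.48, 6.73 and 5.83 TPM against 3.81, 3.37 and 4.82 TPM (0.75, adjusted p = 0.225 by limma). Pde12, a deadenylase of mitochondrial poly(A) tails, stood at 6.03, 6.05, 4.45 and 4.19 TPM against 8.64, 7.70 and 7.37 TPM (-0.54, adjusted p = 0.276 by limma). The groups overlapped in neither gene. Their fold changes had opposite signs, and both genes were expressed at low levels.

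Regulators of mitochondrial biogenesis were divided, with 4 of 9 positive and a median of -0.01. Myc, a transcription factor that drives growth genes including mitochondrial ones, stood at 132, 127, 79.6 and 88.1 TPM with Cr1l and at 49.2, 46.7 and 56.4 TPM with vector. The groups did not overlap (log2 fold change 1.03, adjusted p = 0.127 by limma). Esrra, a nuclear receptor of oxidative genes, stood at 47.3, 44.6, 57.5 and 50.5 TPM against 34.95, 26.8 and 39.6 TPM (0.56, adjusted p = 0.232 by limma). Pprc1, a coactivator related to PGC-1, had a negative value (-0.58, adjusted p = 0.257 by limma). In the stress list (5 of 15 positive, median -0.14), Gdf15, a secreted factor of the mitochondrial stress response, had 1.16 and Phgdh, an enzyme of serine synthesis, had -1.14, neither past the threshold by limma (adjusted p = 0.131 and 0.289). In the mitophagy list (4 of 8 positive, median -0.04), the receptor gene Bnip3 had 0.77 (adjusted p = 0.301 by limma).

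**Figure D5:**
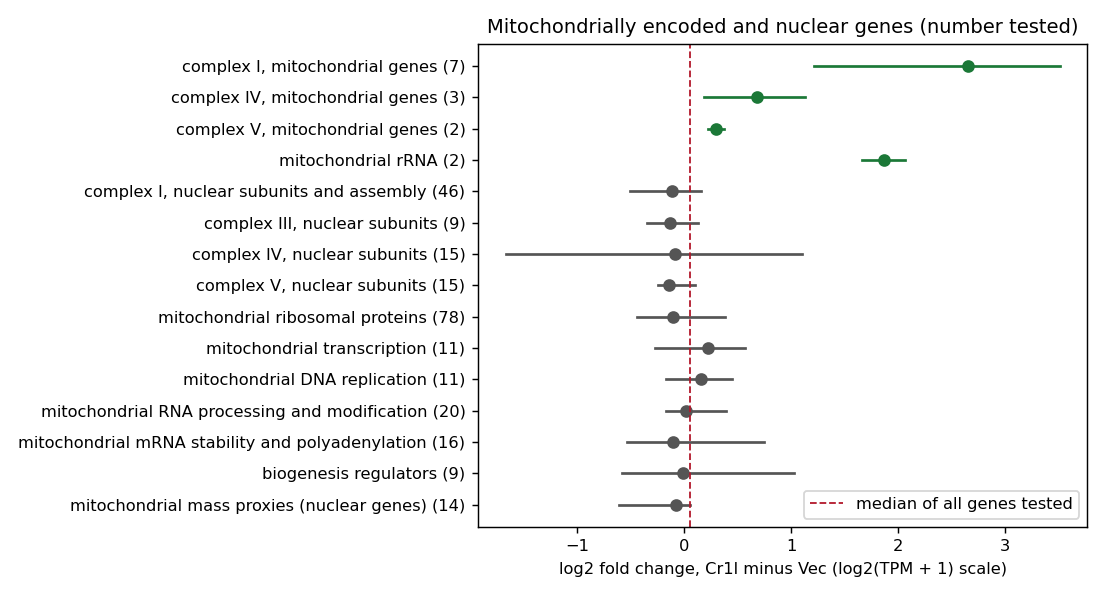
Median log2 fold change (points) and range (lines) of the genes of each list (Cr1l minus Vec, from log2(TPM + 1) values), with mitochondrial genes in green, nuclear lists in grey, the number of genes tested in brackets and the median of all genes as a dashed line. The mitochondrial lists with more than 1 gene have medians of 0.29 to 2.66, and the nuclear lists have medians between -0.14 and 0.22. The widest nuclear range, from -1.67 to 1.10, is that of complex IV.

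Markers of other tissues differed between the same tumours. Erythroid genes (7 in the list, 5 tested, all negative) summed to 106 to 389 TPM in Cr1l tumours and to 416, 41288 and 9695 TPM in Vec 5, Vec 6 and Vec 7. Skeletal muscle genes, from a tissue rich in mitochondria (9 of 9 negative), summed to 8.07 to 338 TPM in Cr1l tumours and to 389, 1923 and 77.3 TPM in Vec tumours. Keratinocyte genes (5 of 5 tested negative) summed to 1.00 to 47.0 TPM and to 50.5, 891 and 8.29 TPM. Macrophage genes (11 of 12 positive) summed to 589.7, 1012, 5842 and 4941 TPM in Cr1l tumours and to 1578, 828 and 502 TPM in Vec tumours. Fibroblast genes (8 of 8 positive) summed to 741, 1120.2, 5958 and 4815 TPM and to 1192, 450.5 and 170.3 TPM. Both lists were high in Cr1l 3 and Cr1l 4, the Cr1l tumours with the higher rRNA values, and overlapped between the groups through Cr1l 1 and Cr1l 2. B and plasma cell genes (8 in the list, 5 tested, all positive, with a median of 3.93) did not overlap, with sums of 420.9, 170.4, 1305 and 483 TPM against 33.9, 9.09 and 13.8 TPM. T and NK cell genes (10 of 10 positive) summed to 17.4 to 221 TPM and to 21.1 to 41.5 TPM. Neutrophil genes (7 in the list, 5 tested, all positive) summed to 10.6 to 205 TPM and to 12.8 to 34.0 TPM. Endothelial genes were positive in 7 of 8, adipocyte genes negative in 5 of 6 tested, and melanocyte genes, which mark the tumour cells, negative in 9 of 10 with a median of -0.35. In none of these lists was a gene at 0 in all 7 tumours. Vec 6, the vector tumour with the highest erythroid and muscle sums, was also the highest vector tumour for every member except mt-Nd1 and mt-Nd6. For mt-Atp6 and mt-Co3 it was the highest of all 7 tumours. Without Vec 6, 14 of 15 members were non-overlapping and higher, against 11.3% of all genes, and the median of the members was 1.73. With macrophage markers as a covariate 11 of 15 were higher at the unadjusted threshold, against 8.99% of all genes, with a median of 1.12. The part of tissue make-up in the differences was not tested.

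RNAs that normally carry no poly(A) tail were also listed. Of 12 such small nuclear and cytoplasmic RNAs, 6 were in the table and 5 were tested, all 5 with negative fold changes and a median of -0.82. They summed to 38.5, 88.2, 40.9 and 37.9 TPM in Cr1l tumours and to 58.0, 179.8 and 84.5 TPM in Vec tumours, so that the sums overlapped. The mean of log2(TPM + 1) over the 6 RNAs did not overlap, with 2.13 to 2.60 in Cr1l tumours and 2.67 to 3.52 in Vec tumours. Nuclear-retained RNAs had mostly positive values, with 5 of 6 positive and a median of 1.55. They summed to 518, 725, 1329 and 1505 TPM against 356, 575 and 615 TPM, with overlap, and Cr1l 3 and Cr1l 4 were highest. Among them Neat1 stood at 341, 469.7, 779 and 902 TPM against 87.2, 166 and 342 TPM (1.76, adjusted p = 0.225 by limma). The part of RNA selection and RNA quality in the mitochondrial differences was not tested.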

How the data were processed

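Per the labels' protocols, poly-T beads captured the RNA of each of the 7 tumours, and the libraries keep no strand. RSEM, DESeq2 and the mm39 build are named in the submitters' processing notes, with no versions, and the sources used here do not give the aligner, annotation or read numbers. The authors deposited expression as log2(TPM + 1), which were turned back into TPM where TPM is printed. A second deposited table, the authors' DESeq2 test, holds per the file headers the mean normalised count (a signal averaged over tumours), the log2 fold change, its standard error and their quotient (a test score), with raw and adjusted p-value. Since Cr1l is positive there, Cr1l was taken as the numerator, which is not named. Of its 28369 identifiers, 27182 matched a symbol in the gene name table given with the reference. A deposited repertoire table was not used here.

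Groups and tumour numbers came from the labels. Genes averaging 1 TPM or more were fitted on log2(TPM + 1) with limma 3.58.1 (R 4.3.3), with group as the 1 term and a variance trend, and p-values were adjusted by Benjamini-Hochberg over all 14954 genes. Fold changes are Cr1l minus Vec on this scale. Single genes were also compared by a two-sided exact permutation test over 35 splits. TPM keeps no depth, so no counting error can be given. The fit was tested on simulated data. The members and lists were chosen with earlier results of these data known. The genes named are all members and, from each other list, up to 3 tested genes with the smallest p; nuclear copies beyond these, and Cr1l, were named after their values were seen. Complex V nuclear genes were matched by older symbols (15 of 18 found). Copies were found with blastn 2.17.0 among GENCODE M21 transcripts, of which 17 genes matched a member over at least 100 bases at 90% identity, with 10 of them in the table. That reference is on another build than the authors' own, so no coordinates are printed. Figures used matplotlib 3.10.9 in Python 3.11.15.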

Additional observations from a re-analysis of the deposited data

Results flagged for a closer look

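Among the 4 Cr1l tumours, 31 measures were examined for a tumour that stood apart from the other 3 by Dixon's ratio, and 4 did. For a single measure chance gives about 1 in 20. The measures overlap, since complex V holds mt-Atp8, so the count of 4 cannot be compared with that rate. Cr1l 4 was apart on the high side in 3 of them. They are mt-Atp8, at 13.41 on the log2(TPM + 1) scale, complex III (mt-Cytb), at 0.779% of TPM, and complex V, at 2.61% of TPM. The fourth was Gm28439, the copy of mt-Nd4, at 1.12 on the log2(TPM + 1) scale in Cr1l 1, with the other 3 Cr1l tumours at 0. With those 3 at 0 the ratio is at its largest whatever the level in Cr1l 1, and this gene was below the filter.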

How the results depend on the processing

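Of 300 alternative values of the 15 members' fold changes, 288 kept their direction and their side of the threshold. The other changes were 9 members past it in the values that the authors deposited, mt-Nd3 past it without Vec 7, and mt-Co3, so that members called numbered 9 by the authors and ran from 0 to 1 by limma when 1 tumour was left out. mt-Co3 ran from -0.0125 (without Vec 5) to 0.50 (without Vec 6) with 1 tumour left out, reached 0.59 without Vec 6 and Vec 7, and turned to -8.64e-04 with the macrophage covariate. Members at an unadjusted p under 0.05 by limma numbered 10 to 14, and their median fold change was 0.99 to 1.73. The share of TPM differed by 2.76 to 4.80 percentage points when 1 tumour was left out (3.71 with all, SD 1.95). Over all genes the call count of 2 was 6 with a pseudocount of 0.1, 5 with 10, 0 with no filter, 1 with a mean of at least 5 TPM, 10 with median-of-ratios scaling, 13 without the variance trend, 14 with arrayWeights (whose iteration stopped short of its tolerance), 6 without Vec 6 and Vec 7, 4 with the covariate, 0 to 7 with 1 tumour left out and 1284 in the authors' deposited table. The cause was not tested. Copies were less stable. Gm10222 (0.71) turned to -3.06 without Vec 6 and Vec 7, -2.28 with the covariate, and ran from -0.25 (without Cr1l 4) to 2.60 (without Vec 5) with 1 tumour left out. Gm28661 (1.22) turned to -0.85 without Vec 6 and Vec 7, -1.01 with the covariate and ran from -0.22 (without Vec 7) to 2.59 (without Cr1l 1). Gm29216 (-0.80) turned to 1.01 without Vec 6 and Vec 7 and ran from -1.70 (without Vec 5) to 0.12 (without Vec 6). Summing members with copies was chosen after seeing the data. No paired analysis was possible because the tumour numbers are not shared between groups. Unknown depth and 3 vector tumours limit the precision.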
